A study of Rattus norvegicus with 15 samples.

Results

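The genes of midkine, pleiotrophin and 7 receptors listed with them were followed through 15 bulk RNA-seq libraries of rat mammary tumours. They are the ligand genes MDK (midkine) and PTN (pleiotrophin), and the receptor genes ALK, LTK, PTPRZ1, LRP1, LRP2, NCL and ITGA4. They were taken by symbol from the count table, which lists 17463 genes, and all 9 were found there. The midkine group (9 libraries) came from Fischer rats that received the protein in 2 courses, each of 2 weeks with 3 injections a week of 300 ug/kg. Each course was followed by 1 dose of the carcinogen N-nitroso-N-methylurea (NMU, 50 mg/kg). The vehicle group (6 libraries) came from Fischer rats given vehicle in place of the protein, and tumours of both groups were induced with NMU. The age and sex of the rats and the composition of the vehicle are not given in the labels. Each library was made from 1 piece of a tumour, the protein was given before and between the carcinogen doses, and the labels do not say how long afterwards each tumour was taken. Some titles share a number (midkine 3-1 and 3-2, midkine 4-1, 4-2 and 4-3, vehicle 2-1 and 2-2), and no label says what a number stands for.

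Midkine and pleiotrophin are the members of a small family of secreted growth factors that bind heparin and the sulfated sugar chains of proteoglycans. They have no single dedicated receptor. Cell surface proteins reported to bind or relay one or both of them include the receptor tyrosine kinase ALK, the receptor-type phosphatase PTPRZ1, whose activity pleiotrophin restrains, the endocytic receptor LRP1, the nucleolar and cell surface protein nucleolin and alpha4 integrins. Midkine is abundant in the embryo, low in most adult tissues and raised in many carcinomas, and the study's title names it as a driver of age-related change and mammary tumour formation. The comparison below asks whether the tumours that grew in midkine-treated rats differed in the transcripts of the animals' own ligands and receptors. The injected protein itself is not seen by RNA sequencing.

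The libraries held 4925504 to 8486523 counted reads (median 7252603) and 13056 to 13665 genes with at least 1 read. Epithelial markers were present in every library, with all 7 of the luminal and general epithelial markers past the expression filter and summed levels of 2004 to 12300 CPM in midkine and 4782 to 7130 CPM in vehicle tumours (CPM, the reads of a gene set against the scaled library size). MYH4, a myosin of fast muscle fibres, had at most 1 read in 5 libraries, midkine 3-1, 3-2, 4-1, 4-2 and 4-3, and clear counts in the other 10, which were 4 midkine and all 6 vehicle libraries. Midkine 1 stood apart, with 15.8% of its reads in 6 skeletal muscle genes, against at most 0.265% in any other library. A value described as within the 10 libraries is one computed without the 5 that lack MYH4. In bulk tumour RNA, fewer cells of a type and less RNA per cell cannot be told apart, which holds for every level given here.

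None of the 9 genes differed between midkine and vehicle tumours by edgeR's quasi-likelihood test. No member had an adjusted p under 0.05, and 0 of the 11665 genes tested had one (0%). No member had an unadjusted p under 0.05 either, which 10.1% of all genes tested had (1178 genes, with 929 higher and 249 lower). DESeq2 called 92 of 13897 genes (0.662%), 86 higher and 6 lower, and no member was among them. For all 9 members the ranges of the groups overlapped, while 2 of the 11665 genes tested had groups that did not overlap (0.0171%). The log2 fold change of midkine over vehicle was positive for 7 members and negative for 2, beside 55.7% positive over all genes tested. Its median was 0.08 over the members and 0.04 over all genes tested. Libraries were also simulated at the same depth, with the spread that edgeR fitted for each gene. There the same test recovered 28.5% of genes changed 2-fold and 86.5% of those changed 4-fold. A change of 2-fold in one of the 9 members could thus be missed at this number of libraries. These shares are over 200 genes drawn at random and changed together, which eases the threshold set by the adjustment. For 1 gene changed alone they may be lower. Simulated counts may also lack single libraries as far out as some seen here. Of the members, NCL varied less than most genes tested (14.3% had a smaller SD of log2 CPM). The others varied more than most (54.9% to 92.3%), so their recovery may be lower.

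**Figure D1:**
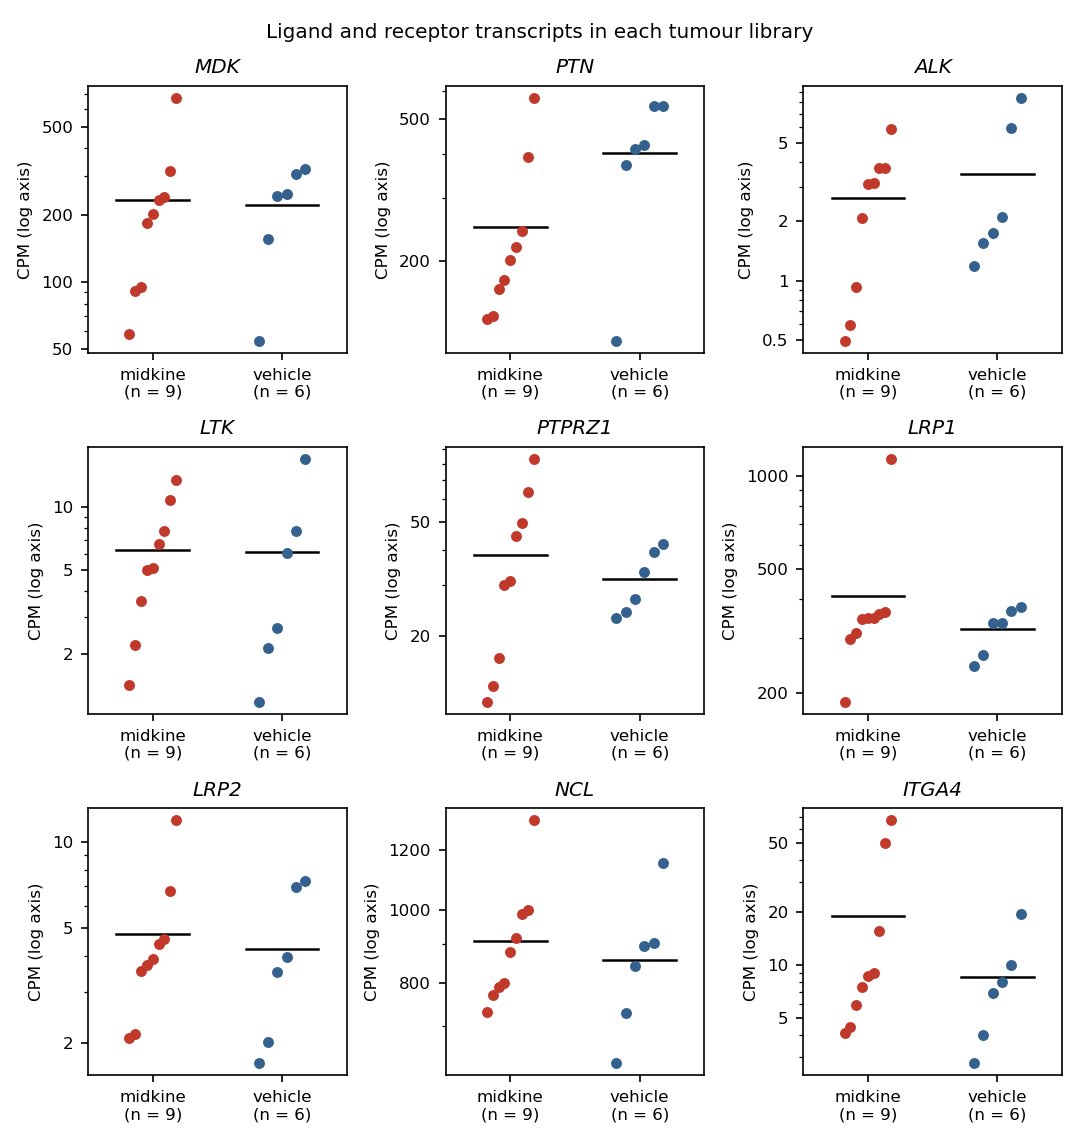
Level of each ligand and receptor gene in CPM (log axis, scaled separately for each gene) in the 9 midkine and 6 vehicle libraries; each point is 1 library, points are ordered by value within a group, and bars are group means. The groups overlap for all 9 genes, and single midkine libraries stand high for MDK, LRP1, LRP2 and NCL.

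MDK, the gene of the administered factor itself, had much the same average level in both groups and a wide range within each. It ran from 58.5 CPM in midkine 3-2 over a median of 202.8 CPM to 672 CPM in midkine 5, and in vehicle tumours from 54.3 CPM in vehicle 2-1 over a median of 245.3 CPM to 323 CPM in vehicle 4. Only midkine 5 lay above the highest vehicle library, no midkine library lay below the lowest vehicle library, and 7 of the 9 midkine libraries lay below the vehicle median. The means were 233 ± 185 CPM (SD, n = 9) in midkine and 222 ± 101 CPM (SD, n = 6) in vehicle tumours. By edgeR the log2 fold change of MDK was 0.07 with an SE of 0.48 (adjusted p = 0.980) and a 95% interval of -0.95 to 1.09. Its sign turned when 1 library was left out, to -0.32 without midkine 5, -0.12 without vehicle 2-1 and -0.015 without vehicle 6, and it was 0.59 (SE 0.54) within the 10 libraries. Across all 15 libraries the highest MDK level was 12.4 times the lowest, and 84.8% of the genes tested had a smaller SD of log2 CPM.

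PTN, which encodes pleiotrophin, was the member with the smallest p, and it was lower on average in midkine tumours without passing the threshold. It ran from 138 CPM in midkine 5 over a median of 202.2 CPM to 572 CPM in midkine 3-1, and in vehicle tumours from 120 CPM in vehicle 3 over a median of 417.9 CPM to 544 CPM in vehicle 6. Of the 9 midkine libraries, 8 lay below the vehicle median, midkine 3-1 being the exception, and of the 6 vehicle libraries, 5 lay above the midkine median, vehicle 3 being the exception. The means were 250 ± 143 CPM (SD, n = 9) in midkine and 402 ± 156 CPM (SD, n = 6) in vehicle tumours. By edgeR this gave PTN a log2 fold change of -0.69 (SE 0.35, unadjusted p = 0.0685, adjusted p = 0.541), with a 95% interval of -1.43 to 0.06, and -0.81 (SE 0.43) within the 10 libraries.

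Setting MDK reads against PTN reads within a library removes the effect of library scaling. This ratio is not one of transcript abundance, since read counts also follow transcript length, so its size has meaning only between libraries. The log2 ratio was highest in midkine 5 (2.29), where MDK was at its highest and PTN near its lowest, and lowest in vehicle 2-1 (-2.96), where the opposite held for MDK and PTN stood at 424 CPM. In midkine tumours it ran from -1.60 over a median of -0.57 to 2.29, and in vehicle tumours from -2.96 over a median of -0.74 to 1.02, so that the groups overlapped over most of their ranges. The means were -0.29 ± 1.14 (SD, n = 9) in midkine and -0.92 ± 1.38 (SD, n = 6) in vehicle tumours. The difference of 0.63 was within this spread (exact permutation test over 5005 assignments, two-sided, p = 0.361). It was 0.31 without midkine 5, 0.22 without vehicle 2-1, 1.01 without vehicle 3 and 1.27 (exact permutation p = 0.205) within the 10 libraries.

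**Figure D2:**
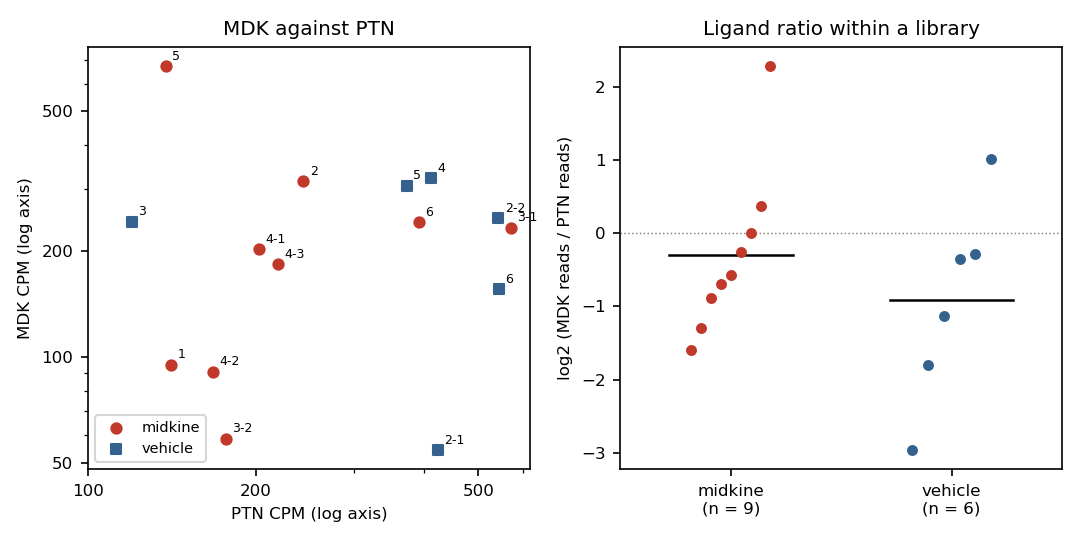
Left, MDK against PTN in CPM (both axes log) with libraries named by title number; right, log2 of MDK reads over PTN reads in each of the 9 midkine and 6 vehicle libraries, with bars at the group means and a dotted line where reads are equal in number. The points on the left follow no line, midkine 5 lies highest in both panels and vehicle 2-1 lowest on the right at -2.96.

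ALK and LTK form their own small branch of receptor tyrosine kinases and are known from neural tissue and from oncogenic fusions. Both were carried by few reads here. ALK had 4 to 48 reads in midkine libraries and 6 to 67 reads in vehicle libraries. Its level ran from 0.495 CPM in midkine 4-3 over a median of 3.09 CPM to 5.85 CPM in midkine 3-2, and in vehicle tumours from 1.19 CPM in vehicle 5 over a median of 1.91 CPM to 8.42 CPM in vehicle 4. Midkine 2, 4-1 and 4-3 lay below every vehicle library, and no midkine library lay above vehicle 4. The means were 2.62 ± 1.77 CPM (SD, n = 9) in midkine and 3.49 ± 2.98 CPM (SD, n = 6) in vehicle tumours, with a log2 fold change of -0.42 (SE 0.56, adjusted p = 0.862 by edgeR; 95% interval -1.62 to 0.78). Medians and means therefore point in opposite directions, and without vehicle 4 the log2 fold change was 0.05 (SE 0.57).

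LTK had 6 to 88 reads in midkine and 9 to 86 reads in vehicle libraries. It ran from 1.43 CPM in midkine 1 over a median of 5.11 CPM to 13.5 CPM in midkine 4-1, and in vehicle tumours from 1.18 CPM in vehicle 6 over a median of 4.37 CPM to 17.0 CPM in vehicle 5. The midkine libraries all lay inside the vehicle range. The means were 6.24 ± 3.97 CPM (SD, n = 9) in midkine and 6.12 ± 5.89 CPM (SD, n = 6) in vehicle tumours, with a log2 fold change of 0.04 (SE 0.56, adjusted p = 0.991 by edgeR; 95% interval -1.16 to 1.24). It was negative without any 1 of midkine 2, 4-1 and 4-3 and vehicle 3, 4 and 6, ran from -0.18 without midkine 4-1 to 0.66 without vehicle 5, and was -0.41 (SE 0.71) within the 10 libraries. The ligands that activate ALK and LTK were all but missing from the counts: ALKAL1 had 0 reads in all 15 libraries together and ALKAL2 had 27.

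PTPRZ1, the receptor-type tyrosine phosphatase that carries chondroitin sulfate chains and is inactivated by pleiotrophin, varied more among midkine than among vehicle tumours. It ran from 11.7 CPM in midkine 5 over a median of 31.1 CPM to 83.0 CPM in midkine 2, and in vehicle tumours from 23.1 CPM in vehicle 2-2 over a median of 30.2 CPM to 42.0 CPM in vehicle 3. Of the 9 midkine libraries, 4 lay above the highest and 3 below the lowest vehicle library. The SD of log2 CPM was 0.99 among midkine and 0.36 among vehicle libraries, a difference that was not tested. A larger SD among midkine libraries was also seen for LRP1 (0.684 against 0.26), ITGA4 (1.42 against 0.955), MDK and ALK. For PTN, LTK, LRP2 and NCL the SD was smaller among midkine libraries. The means were 38.2 ± 24.3 CPM (SD, n = 9) in midkine and 31.5 ± 7.97 CPM (SD, n = 6) in vehicle tumours, with a log2 fold change of 0.28 (SE 0.39, adjusted p = 0.866 by edgeR; 95% interval -0.55 to 1.11). Without midkine 2 it was 0.05 (SE 0.36).

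LRP1, a large endocytic receptor of the LDL receptor family that clears proteases and their inhibitors and binds midkine, varied little except in 2 midkine libraries. Midkine 5 stood at 1131 CPM and midkine 1 at 187 CPM, while the other midkine libraries lay between 298 and 365 CPM. The midkine median was 347 CPM, and vehicle libraries ran from 243 CPM in vehicle 5 over a median of 336 CPM to 379 CPM in vehicle 6. The means were 410 ± 276 CPM (SD, n = 9) in midkine and 321 ± 55.0 CPM (SD, n = 6) in vehicle tumours, with a log2 fold change of 0.35 (SE 0.31, adjusted p = 0.760 by edgeR; 95% interval -0.31 to 1.01). Without midkine 5 it was 0.00 (SE 0.16), and within the 10 libraries, which include midkine 5, it was 0.65 (SE 0.42). Midkine 5 also held the highest level of fibroblast markers: 7 of 8 listed markers passed the filter (COL1A2 did not), none was at 0 in all libraries, and their summed level was 130146 CPM in midkine 5, against 203 to 7158 CPM in the other midkine and 423 to 8570 CPM in vehicle libraries. The part of these markers in the LRP1 value was not tested.

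LRP2, also called megalin, is the related endocytic receptor of absorptive epithelia such as the kidney tubule, and it was carried by 9 to 80 reads in midkine and 13 to 56 reads in vehicle libraries. It ran from 2.07 CPM in midkine 3-2 over a median of 3.89 CPM to 11.9 CPM in midkine 2, and in vehicle tumours from 1.70 CPM in vehicle 6 over a median of 3.74 CPM to 7.32 CPM in vehicle 5. Midkine 2 was the only midkine library above the vehicle range. The means were 4.78 ± 3.01 CPM (SD, n = 9) in midkine and 4.24 ± 2.40 CPM (SD, n = 6) in vehicle tumours. edgeR gave LRP2 a log2 fold change of 0.18 (SE 0.42, adjusted p = 0.924; 95% interval -0.72 to 1.08), and -0.11 (SE 0.38) without midkine 2.

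LRP2 and LTK were the members that kept closest company: LTK was the third most similar of 11407 genes to LRP2 across the 15 libraries (Spearman's rho 0.83, Pearson's r 0.76), a relation found by search and so given with no test. Both rest on low counts in the same libraries. The stretches before their annotated starts are shown because the pair moved together. The sequences are the 250 bases before the annotated start in RefSeq's rat assembly GRCr8, 5′ to 3′ on the strand of the gene (LTK at chr3:127195357-127195606, minus strand; LRP2 at chr3:74754536-74754785, minus strand). Capitals mark the GC box GGGCGG and the ETS core CCGGAA on either strand, so that CCGCCC and TTCCGG are their reverse complements.
LTK: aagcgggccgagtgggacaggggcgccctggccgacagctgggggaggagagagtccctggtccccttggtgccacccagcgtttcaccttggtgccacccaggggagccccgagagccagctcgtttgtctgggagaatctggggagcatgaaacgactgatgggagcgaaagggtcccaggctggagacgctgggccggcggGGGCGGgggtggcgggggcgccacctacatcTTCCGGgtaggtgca
LRP2: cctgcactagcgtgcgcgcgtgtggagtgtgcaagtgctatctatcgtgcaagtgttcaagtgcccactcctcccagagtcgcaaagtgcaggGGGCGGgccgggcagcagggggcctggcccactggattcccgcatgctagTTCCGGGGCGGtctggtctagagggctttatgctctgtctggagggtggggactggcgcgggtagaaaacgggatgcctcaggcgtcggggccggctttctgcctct
LTK held 1 GC box and 1 ETS core. LRP2 held 2 GC boxes and 1 ETS core, and its second GC box overlaps the ETS core in the run TTCCGGGGCGG. Of 33469 rat promoters of this length, 30.5% held a GC box and 12.6% an ETS core. The shares of G and C were 68.8% for LTK and 64.4% for LRP2, against a median of 51.2% over all promoters. A match of letters is a description and shows no binding. Read in 1 frame, the last part of the LTK stretch gives a row of glycine codons, so it may be coding sequence rather than promoter. Whether the annotated start of LTK is the one used in these tumours was not tested.

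NCL encodes nucleolin, a nucleolar protein of ribosome production that also appears at the cell surface, where midkine and pleiotrophin bind it. It was the steadiest member: only 14.3% of the genes tested had a smaller SD of log2 CPM, and its highest level was 2.11 times its lowest. It ran from 730.0 CPM in midkine 1 over a median of 879 CPM to 1317 CPM in midkine 3-2, and in vehicle tumours from 625.4 CPM in vehicle 2-1 over a median of 868 CPM to 1153 CPM in vehicle 3. Only midkine 3-2 lay above the vehicle range. The means were 910 ± 180 CPM (SD, n = 9) in midkine and 858 ± 180 CPM (SD, n = 6) in vehicle tumours. edgeR gave NCL a log2 fold change of 0.08 (SE 0.16, adjusted p = 0.905) with a 95% interval of -0.26 to 0.43, the narrowest of the 9 members. Without midkine 3-2 it was 0.00 (SE 0.14), and when libraries were scaled by their total alone it was -0.034.

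The genes most like NCL across the 15 libraries were NOLC1, a nucleolar phosphoprotein (rho 0.93, r 0.91), CAND1, an exchange factor of cullin ubiquitin ligases (rho 0.93, r 0.78), and SNRPB, a core protein of the spliceosome (rho 0.93, r 0.83). NOLC1 had also been placed on the list of nucleolar companions of NCL. The promoters of NCL (chr9:94456084-94456333, minus strand) and NOLC1 (chr1:254870109-254870358, plus strand) are shown because NOLC1 was the gene most like NCL, with the same motifs in capitals and from the same assembly.
NCL: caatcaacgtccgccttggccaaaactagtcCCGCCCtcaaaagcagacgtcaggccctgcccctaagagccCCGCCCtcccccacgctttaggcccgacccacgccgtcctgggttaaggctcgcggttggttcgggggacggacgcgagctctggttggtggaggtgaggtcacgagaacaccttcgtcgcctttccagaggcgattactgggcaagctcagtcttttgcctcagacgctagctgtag
NOLC1: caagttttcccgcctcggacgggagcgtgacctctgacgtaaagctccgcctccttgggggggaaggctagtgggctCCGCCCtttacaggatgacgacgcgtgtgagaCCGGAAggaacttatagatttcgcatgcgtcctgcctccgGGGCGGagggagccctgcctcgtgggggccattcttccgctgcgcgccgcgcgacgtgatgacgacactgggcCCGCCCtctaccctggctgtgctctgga
NCL held 2 GC boxes and no ETS core, and NOLC1 held 3 GC boxes and 1 ETS core. Neither held the E-box CACGTG, which 5.59% of all promoters held. The 9 nucleolar companions were all measured and none had an unadjusted p under 0.05 (3 higher and 6 lower in midkine tumours, median log2 fold change -0.03). Log2 fold changes were 0.09 (SE 0.21) for the ribosomal RNA polymerase subunit POLR1A, -0.17 (SE 0.21) for the box C/D particle protein NOP58 and 0.18 (SE 0.23) for the polymerase I factor RRN3.

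ITGA4, the alpha4 integrin chain, pairs with ITGB1 or ITGB7 and is a hallmark of migrating leukocytes. It was the most variable member, with 92.3% of the genes tested below its SD of log2 CPM and a highest level 24.3 times the lowest. It ran from 4.08 CPM in midkine 4-3 over a median of 8.68 CPM to 67.3 CPM in midkine 4-2, and in vehicle tumours from 2.77 CPM in vehicle 5 over a median of 7.47 CPM to 19.6 CPM in vehicle 4. Midkine 4-2 (67.3 CPM) and midkine 3-2 (49.8 CPM) lay above the vehicle range, and the other 7 midkine libraries lay inside it. The means were 19.2 ± 23.0 CPM (SD, n = 9) in midkine and 8.55 ± 6.03 CPM (SD, n = 6) in vehicle tumours, with a log2 fold change of 1.16 (SE 0.69, unadjusted p = 0.110, adjusted p = 0.604 by edgeR; 95% interval -0.30 to 2.62). It was 0.62 (SE 0.60) without midkine 4-2 and 0.15 (SE 0.51) within the 10 libraries. The same 2 libraries held the highest lymphocyte marker levels: 7 of 10 listed markers passed the filter, and their summed level was 1365 CPM in midkine 4-2 and 401 CPM in midkine 3-2, against 18.6 to 176 CPM in the other midkine and 17.8 to 58.7 CPM in vehicle libraries. The part of these markers in the ITGA4 value was not tested.

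Co-variation of each ligand with the other ligand and with the 7 receptors gave 15 relations over the 15 libraries, and none passed the threshold. By Spearman's rho all 15 had an adjusted p of 0.995, and by Pearson's r the smallest adjusted p was 0.631 (permutation test with 100000 resamples, two-sided, Benjamini-Hochberg over the 15). MDK and PTN did not track each other (rho -0.0036, permutation p = 0.995; r 0.06, permutation p = 0.844; r 0.10 without midkine 3-2 and vehicle 2-1, the libraries farthest from the median of MDK). Among the relations of MDK, the largest r was with LRP1 (r 0.45, permutation p = 0.102; rho 0.02, permutation p = 0.953), and midkine 5 was highest for both genes. Without that library rho was -0.21. MDK with ITGA4 had r -0.39 (permutation p = 0.151) and rho -0.07 (permutation p = 0.791). MDK with the remaining receptors had rho between 0.05 (LRP2) and 0.14 (PTPRZ1).

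PTN had its largest rho with ITGA4, -0.42 (permutation p = 0.119; r -0.41, permutation p = 0.130; r -0.35 without midkine 3-1 and vehicle 6, the libraries farthest from the median of PTN). Its rho was -0.29 with NCL (permutation p = 0.288; r -0.38, permutation p = 0.168), 0.26 with LRP1 (permutation p = 0.341; r -0.06, permutation p = 0.874) and between 0.06 and 0.15 with PTPRZ1, ALK, LRP2 and LTK. Within the groups, the 9 midkine libraries gave PTN with ITGA4 a rho of -0.73 (exact permutation p = 0.0311) and PTN with PTPRZ1 a rho of 0.68 (exact permutation p = 0.0503). The 6 vehicle libraries gave those pairs a rho of 0.09 (exact permutation p = 0.919) and -0.83 (exact permutation p = 0.0583). PTN with LRP1 had a rho of -0.12 in midkine (exact permutation p = 0.776) and 0.94 in vehicle libraries (exact permutation p = 0.0167). These pairs were picked because they held the smallest p-values among the 15 relations of a group. The p-values are not adjusted, and whether the relations differ between the groups was not tested. Within the 10 libraries rho was -0.13 for PTN with ITGA4, -0.08 for PTN with PTPRZ1 and 0.44 for PTN with LRP1. No correlation was computed over the 5 libraries that lack MYH4 alone.

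**Figure D3:**
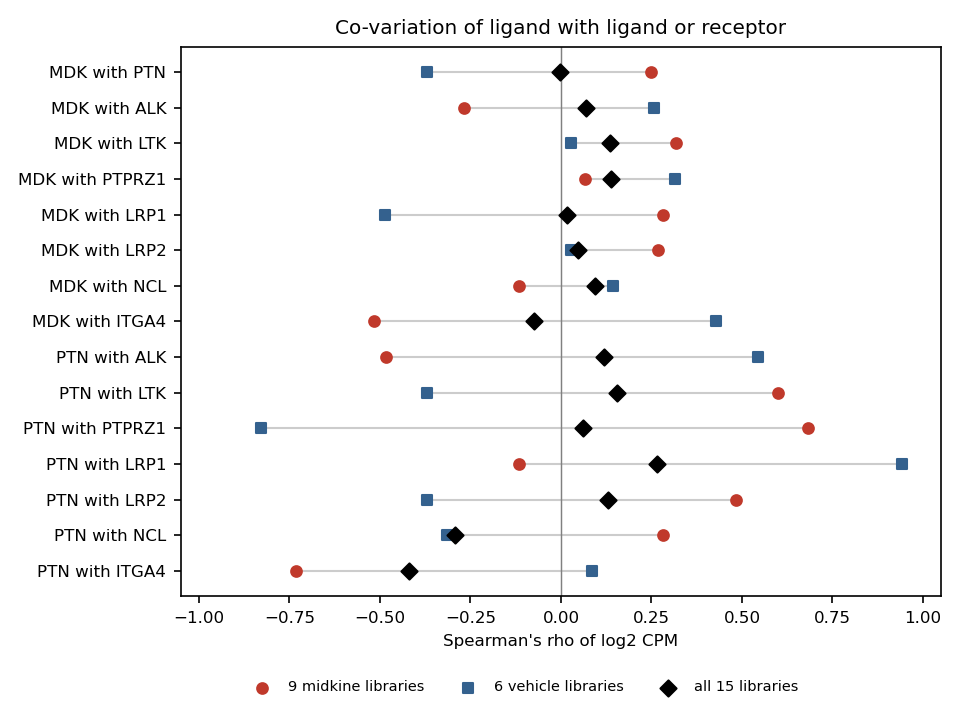
Spearman's rho of log2 CPM for each of the 15 ligand relations in the 9 midkine libraries, the 6 vehicle libraries and all 15 together. The pooled values lie between -0.42 (PTN with ITGA4) and 0.26 (PTN with LRP1), and the values within groups lie on opposite sides of 0 for several pairs, among them PTN with PTPRZ1.

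Because a tumour piece holds several cell types, each member was also set against 10 lists of marker genes, scored as their mean log2 CPM, in 90 relations over the 15 libraries. None passed by rho and 4 passed by r, and these 4 concern MDK and PTPRZ1. MDK was higher in libraries with more proliferation marker RNA (MKI67, TOP2A, CCNB1, BIRC5 and CDK1): rho was 0.71 (permutation p = 0.00371, adjusted p = 0.167) and r 0.73 (permutation p = 0.00216, adjusted p = 0.0486). Without midkine 1 and midkine 3-2, which had the lowest proliferation scores, r was 0.56. The value of rho was 0.83 among the midkine libraries, 0.54 among the vehicle libraries and 0.60 within the 10 libraries. With the basal epithelial markers MDK had rho 0.53 (permutation p = 0.0437, adjusted p = 0.327). For that list r was 0.58 (permutation p = 0.0236, adjusted p = 0.159).

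PTPRZ1 was higher where epithelial markers were higher. With the 7 basal markers, which include KRT5, KRT14 and TP63, rho was 0.69 (permutation p = 0.00620, adjusted p = 0.175) and r 0.74 (permutation p = 0.00201, adjusted p = 0.0486), and r was 0.89 without midkine 2 and midkine 3-2, the libraries with extreme basal scores. For this pair rho was 0.70 among midkine and 0.89 among vehicle libraries, and 0.92 within the 10 libraries. With the luminal and general epithelial markers rho was 0.65 (permutation p = 0.0112, adjusted p = 0.175) and r 0.76 (permutation p = 0.00112, adjusted p = 0.0486; 0.72 without midkine 1 and midkine 3-2). For the luminal list rho was 0.77 among midkine and 0.09 among vehicle libraries. With the fibroblast markers PTPRZ1 had rho -0.44 (permutation p = 0.106). Its r was -0.64 (permutation p = 0.00936, adjusted p = 0.159; -0.22 without midkine 2 and midkine 5). With the endothelial markers PTPRZ1 had rho -0.43 (permutation p = 0.111). There r was -0.54 (permutation p = 0.0374, adjusted p = 0.211; -0.20 without midkine 4-2 and midkine 5). PTPRZ1 with the adipocyte list had rho -0.65 (permutation p = 0.0112, adjusted p = 0.175) and r -0.75 (permutation p = 0.00124, adjusted p = 0.0486; -0.51 without midkine 1 and midkine 5), but only 2 of the 6 listed adipocyte markers, FABP4 and LPL, passed the filter.

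ITGA4 had no relation past the threshold. Its largest rho was with the 2 adipocyte markers, 0.72 (permutation p = 0.00357, adjusted p = 0.167), with r 0.62 (permutation p = 0.0140, adjusted p = 0.159) and r 0.83 without midkine 1 and midkine 5. With the lymphocyte markers its r was 0.60 (permutation p = 0.0184, adjusted p = 0.159) and rho 0.21 (permutation p = 0.450), and r was -0.25 without midkine 3-2 and midkine 4-2, so the relation rests on those libraries. With the fibroblast markers ITGA4 had rho 0.64 (permutation p = 0.0117, adjusted p = 0.175) and r 0.43 (permutation p = 0.110; 0.63 without midkine 2 and midkine 5). With the endothelial markers rho was 0.56 (permutation p = 0.0326, adjusted p = 0.326). For that list r was 0.46 (permutation p = 0.0852; 0.34 without midkine 4-2 and midkine 5). With the macrophage markers rho was 0.48 (permutation p = 0.0723) and r 0.58 (permutation p = 0.0224, adjusted p = 0.159; 0.45 without midkine 4-1 and midkine 4-2). With the basal epithelial markers rho was -0.44 (permutation p = 0.108) and r -0.56 (permutation p = 0.0311, adjusted p = 0.187; -0.43 without midkine 2 and midkine 3-2). LRP1 with the fibroblast markers had rho 0.48 (permutation p = 0.0738, adjusted p = 0.391) and r 0.66 (permutation p = 0.0148, adjusted p = 0.159), with r 0.44 without midkine 2 and midkine 5. With the endothelial markers LRP1 had rho 0.41 (permutation p = 0.133). There r was 0.56 (permutation p = 0.0239, adjusted p = 0.159; 0.14 without midkine 4-2 and midkine 5). ALK had rho -0.62 with the basal (permutation p = 0.0157, adjusted p = 0.202) and 0.59 with the adipocyte markers (permutation p = 0.0242). Its rho was 0.55 with the fibroblast (permutation p = 0.0382) and 0.54 with the endothelial markers (permutation p = 0.0406). NCL had r 0.61 with the luminal (permutation p = 0.0162) and rho 0.52 with the basal markers (permutation p = 0.0492). LTK and LRP2 had no unadjusted permutation p under 0.05. PTN had no relation with an adjusted p under 0.05 to any of the 10 lists. Its rho was 0.04 with the luminal, 0.06 with the basal and -0.25 with the fibroblast markers. The relation of PTN farthest from 0 was with the 2 adipocyte markers (rho -0.32, permutation p = 0.250). For that list r was -0.49 (permutation p = 0.0633, adjusted p = 0.271), and -0.21 without midkine 1 and midkine 5. With the skeletal muscle markers the rho of PTN was -0.31 (permutation p = 0.263). Its r was -0.26, and -0.05 without midkine 1 and midkine 4-3. Within the 10 libraries rho was -0.77, a value picked from 90 relations and not tested.

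**Figure D4:**
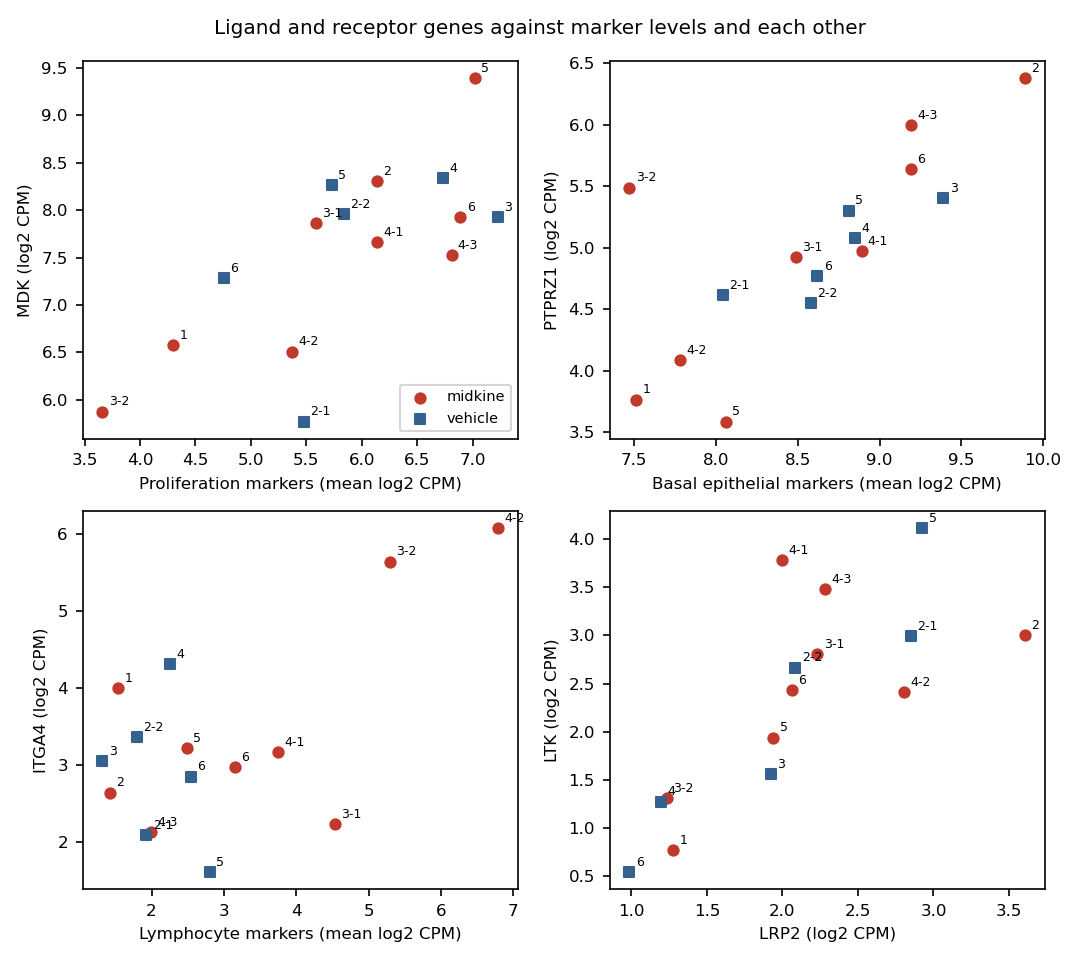
Log2 CPM of MDK against the proliferation score, PTPRZ1 against the basal epithelial score, ITGA4 against the lymphocyte score and LTK against LRP2, where a score is the mean log2 CPM of a marker list; each point is 1 of the 9 midkine or 6 vehicle libraries, named by title number. MDK and PTPRZ1 climb with their scores, midkine 4-2 and 3-2 alone stand high for ITGA4, and LTK and LRP2 climb together.

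The genes whose levels were most like each member were ranked by rho among 11407 genes over the 15 libraries. As these are the highest of many values, they are given with no test. For MDK they were SLC35B2, a Golgi carrier of the sulfate donor PAPS (rho 0.89, r 0.79), the sulfotransferase family gene SULT5A1 (rho 0.88, r 0.87), the zinc finger factor OSR1 (rho 0.88, r 0.82), NMRAL1 (rho 0.88, r 0.74) and RBPMS2 (rho 0.88, r 0.78). For PTN they were BAMBI, a decoy receptor of the TGF-beta family (rho 0.94, r 0.92), the ETS factor ETV4 (rho 0.92, r 0.88), the protease inhibitor SERPINE2 (rho 0.92, r 0.93), the homeobox factor DLX3 (rho 0.90, r 0.86) and the Wnt ligand WNT5A (rho 0.90, r 0.90). No gene appeared on both lists.

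Among the receptors, ALK was most like AXIN2, a feedback inhibitor of Wnt signalling (rho 0.88, r 0.80), TWIST2 (rho 0.87, r 0.75) and HMCN1 (rho 0.87, r 0.74). LTK was most like the inhibin chain INHA (rho 0.91, r 0.85), SERTAD3 (rho 0.86, r 0.80) and the snoRNA host gene GAS5 (rho 0.84, r 0.81). PTPRZ1 was most like the imprinted gene PHLDA2 (rho 0.95, r 0.95), followed by FAM136A and the glycolytic enzyme PGAM1 (rho 0.92, r 0.89 for each). LRP1 was most like the membrane skeleton protein ADD1 (rho 0.91, r 0.74), the SRC-family kinase FYN (rho 0.86, r 0.67) and CYP2U1 (rho 0.85, r 0.38). LRP2 was most like PDZD3 (rho 0.86, r 0.75), the cell cycle inhibitor CDKN2A (rho 0.83, r 0.67) and LTK. ITGA4 was most like the xylosyltransferase XYLT1, which starts proteoglycan sugar chains (rho 0.88, r 0.89), the amino acid carrier SLC16A10 (rho 0.85, r 0.81) and GYPC (rho 0.84, r 0.66). For CYP2U1 rho and r lie far apart.

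The wider pathway was read from 9 lists of 96 genes, of which 92 were in the table and 79 passed the filter. None of the 79 had an adjusted p under 0.05. At an unadjusted p under 0.05 there were 6 higher and 3 lower, 9 of 79 genes, beside 10.1% of all genes tested. Of the 79, 48 had a positive and 31 a negative log2 fold change, beside 55.7% positive over all genes tested. The median was 0.14, beside 0.04 over all genes tested.

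Proteoglycans that present midkine and pleiotrophin to their receptors had 11 of 15 genes tested, 5 higher and 6 lower (median log2 fold change -0.12). The chondroitin sulfate proteoglycan versican, VCAN, had 231 ± 106 CPM in midkine (SD, n = 9) and 419 ± 167 CPM in vehicle tumours (SD, n = 6), a log2 fold change of -0.86 (SE 0.32, unadjusted p = 0.0162, adjusted p = 0.399 by edgeR). The syndecan SDC2 had -0.43 (SE 0.21) and the glypican GPC2 -0.72 (SE 0.45). Of the genes that build or edit the sugar chains, 14 of 16 were tested, 8 higher and 6 lower (median 0.07). SULF1, an extracellular enzyme that removes sulfate groups from heparan sulfate, had 27.1 ± 19.1 CPM in midkine and 7.68 ± 4.63 CPM in vehicle tumours (log2 fold change 1.82, SE 0.53, unadjusted p = 0.00338, adjusted p = 0.399 by edgeR). DSE, the epimerase that turns chondroitin into dermatan sulfate, had 1.62 (SE 0.53, unadjusted p = 0.00798), and the 2-O-sulfotransferase HS2ST1 had -0.24 (SE 0.12). SULF1 and DSE were both highest in midkine 4-2, at 64.6 and 70.6 CPM, with 44.5 and 50.3 CPM in the next midkine library and at most 15.8 and 18.6 CPM in any vehicle library. Midkine 4-2 also held the highest summed levels of macrophage (726 CPM) and lymphocyte markers (1365 CPM) and the second highest of endothelial markers (670 CPM). All 7 macrophage and all 7 endothelial markers passed the filter, none was at 0 in all libraries, and their summed levels ran from 244 to 726 CPM and from 195 to 912 CPM in midkine libraries, against 184 to 396 CPM and 164 to 367 CPM in vehicle libraries. Mean log2 CPM in midkine and vehicle tumours was 4.85 ± 0.68 and 3.99 ± 0.58 for the macrophage list, 5.57 ± 0.78 and 4.75 ± 0.55 for the endothelial list and 7.41 ± 2.04 and 6.10 ± 1.24 for the fibroblast list (SD, n = 9 and 6). The part of these markers in the SULF1 and DSE values was not tested.

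Other reported receptors had 4 of 5 genes tested, 3 higher and 1 lower (median 0.33). The log2 fold change was 0.51 for NOTCH2 (SE 0.36), 0.16 for the integrin chain ITGB1 (SE 0.19) and 0.64 for ITGB3 (SE 0.49). Adaptors of ALK and LTK had 9 of 11 genes tested, 7 higher and 2 lower (median 0.16). The adaptor GRB2, which links receptor kinases to RAS, had 138 ± 59.4 CPM in midkine (SD, n = 9) and 94.2 ± 15.9 CPM in vehicle tumours (SD, n = 6), a log2 fold change of 0.56 (SE 0.23, unadjusted p = 0.0302, adjusted p = 0.442 by edgeR). CRK and CRKL had 0.64 (SE 0.39) and 0.63 (SE 0.43). All of GRB2, CRK and CRKL were highest in midkine 3-2.

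Partners and substrates of PTPRZ1 had 7 of 9 genes tested, 5 higher and 2 lower (median 0.14). Log2 fold changes were 0.61 (SE 0.35) for FYN, a kinase whose signalling pleiotrophin alters through PTPRZ1, -0.33 (SE 0.27) for the scaffold MAGI1 and -1.04 (SE 0.62) for the adhesion molecule NRCAM. CNTN1, the contactin that binds PTPRZ1, did not pass the filter, and midkine 5 held 66.6 CPM of it, against 7.08 CPM in the next midkine library and at most 1.75 CPM in a vehicle library.

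Relatives, partners and ligands of LRP1 and LRP2 had 12 of 16 genes tested, 8 higher and 4 lower (median 0.33). The matrix protein and LRP1 ligand THBS1 had a log2 fold change of 2.15 (SE 0.92, unadjusted p = 0.0340, adjusted p = 0.454 by edgeR). Midkine 3-2 stood far above the rest for THBS1, with 5065 CPM against 431 CPM in the next midkine library and at most 381 CPM in a vehicle library. The Wnt co-receptor LRP5 had 221 ± 66.7 CPM in midkine (SD, n = 9) and 305 ± 42.5 CPM in vehicle tumours (SD, n = 6), a log2 fold change of -0.46 (SE 0.19, unadjusted p = 0.0285).

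Partners and ligands of ITGA4 had 6 of 7 genes tested, 5 higher and 1 lower, with the highest median of the lists (0.78). The partner chain ITGB7 had a log2 fold change of 2.06 (SE 0.78, unadjusted p = 0.0179, adjusted p = 0.406 by edgeR), and like ITGA4 it was highest in midkine 4-2, at 126 CPM against 23.1 CPM in the next midkine library and at most 8.31 CPM in a vehicle library. The endothelial ligand VCAM1 had 1.62 (SE 0.99), and its 2 highest midkine libraries held 187 CPM (midkine 4-2) and 40.7 CPM. Fibronectin, FN1, had 1.35 (SE 0.65) and was highest in midkine 5, at 2541 CPM. Regulators linked with MDK transcription had 8 of 9 genes tested, 5 higher and 3 lower (median 0.29). The retinoic acid receptor RARB had -0.83 (SE 0.36, unadjusted p = 0.0361), the NF-kappaB subunit NFKB1 0.86 (SE 0.49) and the retinoic acid carrier CRABP2 -0.52 (SE 0.30). NFKB1 was highest in midkine 3-2, at 1036 CPM, the midkine library with the lowest MDK.

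**Figure D5:**
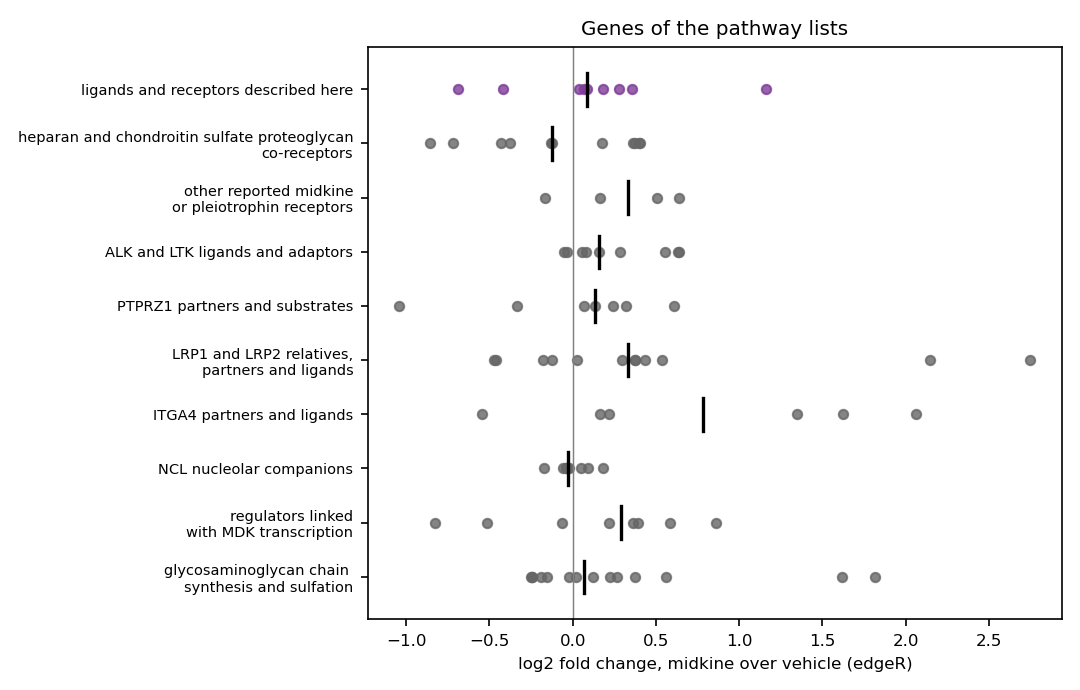
Log2 fold change of midkine over vehicle (edgeR) for the 9 ligands and receptors and for the genes tested of each pathway list; each point is 1 gene and vertical bars are medians. List medians lie between -0.12 (proteoglycan co-receptors) and 0.78 (ITGA4 partners and ligands), and no gene plotted passed the threshold.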

How the data were processed

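Poly(A)-selected libraries of 15 rat mammary tumours (9 midkine, 6 vehicle) were sequenced as paired-end reads, per the labels' protocols. The deposited table holds raw read counts for each gene symbol, per the file headers, and whole numbers throughout. The build is rn6 according to the submitters' processing notes. How reads were counted and whether strand was used is not given in the sources used here, and reads of overlapping or antisense genes cannot be told apart.

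Groups follow the treatment label. No label says that libraries came from separate animals, so p-values measure the spread between these libraries, which may partly be technical. Every pair of libraries of a group differed by more than sampling noise (lowest chi-square per degree of freedom 20.25, over genes averaging 20 reads or more). That lowest value was between vehicle 2-1 and 2-2, which share a title number. Other pairs that share a number had 149.2 (midkine 3-1 and 3-2) and 37.49 to 123.6 (midkine 4-1, 4-2 and 4-3).

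The main test was edgeR 4.0.16 in R 4.3.3 (expression filter by group, leaving 11665 genes; TMM scaling, factors 0.553 to 1.133; quasi-likelihood F test, Benjamini-Hochberg, threshold 0.05). All 9 members passed the filter. Levels are CPM after TMM scaling; log2 CPM has a prior count of 2. Intervals are at 95%. Correlations and permutation tests were computed directly in Python 3.11.15, with ranks from SciPy 1.17.1. To both counts of the ligand ratio 0.5 was added. Alternatives were DESeq2 1.42.0, limma-voom (limma 3.58.1), other scalings, no filter, summed libraries, a replicate block, the 10 libraries with MYH4 reads (at least 10 reads) and each library left out. In simulated data for 11665 genes with 200 changed, the edgeR test recovered 28.5% of 2-fold, 86.5% of 4-fold and 88.5% of 8-fold changes, with 2, 8 and 9 false calls. Named genes are the 9 members, the 3 of smallest p in each pathway list (CNTN1 and the ALKAL genes were added after their values were seen), and the 3 genes, or 5 for the ligands, most like each member in rho (mean log2 CPM 0 or more, no placeholder symbols); 1 gene that this rule gives is not reported here. The members and lists were chosen with earlier results of these data known. Promoter sequences are from RefSeq (GRCr8), in which 7 members had an entry.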

Additional observations from a re-analysis of the deposited data

Results flagged for a closer look

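In each group the highest and the lowest library were set against the rest by Dixon's ratio of gap to range, with a 95% critical value of 0.493 for 9 libraries. The check covered 20 groups, and chance flags about 1 in 20 groups. In all, 4 values passed, all of them the highest of the 9 midkine libraries. MDK stood at 672 CPM in midkine 5, with 316 CPM in the library after it (ratio 0.581). LRP1 stood at 1131 CPM in midkine 5, with 365 CPM in the library after it (ratio 0.812). LRP2 stood at 11.9 CPM in midkine 2, with 6.72 CPM in the library after it (ratio 0.527). NCL stood at 1317 CPM in midkine 3-2, with 999 CPM in the library after it (ratio 0.542). That rate holds for values spread about evenly round their mean, and CPM values are skewed. On log2 CPM, a scale chosen after seeing the data, 2 of the 18 groups of single genes passed. LRP1 in midkine 5 did so again (ratio 0.628), and so did PTN in vehicle 3, the lowest of the 6 vehicle libraries (ratio 0.749, critical value 0.625). On that scale MDK in midkine 5 (0.310), LRP2 in midkine 2 (0.337) and NCL in midkine 3-2 (0.467) did not pass.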

How the results depend on the processing

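ALK, LRP2 and LTK rest on 328, 483 and 641 reads over all 15 libraries. No member passed the threshold under any alternative run. edgeR called 0 genes under each of its settings and with each library left out, limma-voom also called 0 (602 at an unadjusted p under 0.05), and DESeq2 called 86 higher and 6 lower. Signs of small fold changes turned: scaling by the total alone gave -0.0511 for MDK, -0.0155 for LTK and -0.034 for NCL, limma-voom gave -0.0728 for MDK, summing libraries that share a title number gave -0.15 for LTK, and the 10 libraries with MYH4 reads gave -0.41 for LTK. With 1 library left out, log2 fold changes ran from -0.32 to 0.21 for MDK, -0.67 to 0.0524 for ALK, -0.18 to 0.66 for LTK and -0.11 to 0.40 for LRP2. The cause of these turns was not tested. Title numbers gave no sign of pairing the groups, though 5 shared numbers are too few to tell. Over these 5 the correlation of deviations, averaged per number, ran from -0.236 to 0.139. No vehicle average was most like the midkine average of its own number. With the number as a replicate block edgeR called 0 genes (323 at an unadjusted p under 0.05, against 1178 without it) and the ligand ratio differed by 0.72 (exact permutation p = 0.389).

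Correlations near 0 also turned. By Pearson's r, MDK with PTN was 0.0556, MDK with ALK -0.0931 and PTN with LRP1 -0.0579. As deviations from group means, MDK with PTN was 0.12 and MDK with ALK -0.0036. With libraries of a title number summed, rho was 0.00909 for MDK with PTN, -0.14 for MDK with ALK, -0.0364 for PTN with LTK, -0.0273 for PTN with PTPRZ1 and -0.13 for PTN with LRP2. Within the 10 libraries it was 0.22 for MDK with ITGA4, -0.0303 for PTN with LTK, -0.0788 for PTN with PTPRZ1 and -0.0909 for PTN with LRP2, and scaling by the total gave 0.24 for MDK with PTN. Leaving out 1 library moved the rho of MDK from -0.0813 to 0.20 with PTN, -0.13 to 0.18 with ALK, -0.21 to 0.12 with LRP1, -0.0769 to 0.23 with LRP2, -0.12 to 0.28 with NCL and -0.28 to 0.0769 with ITGA4. It moved that of PTN from -0.0242 to 0.23 with ALK and from -0.11 to 0.19 with PTPRZ1. For markers, 4 relations passed by Pearson's r and 0 by rho: MDK with proliferation (r 0.73), and PTPRZ1 with luminal (r 0.76), basal (r 0.74) and adipocyte (r -0.75) lists.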
